A study of Mus musculus with 8 samples.

Results

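Acetylcholine signalling in mouse hippocampus was followed through 9 genes: the muscarinic receptor genes Chrm1, Chrm2, Chrm3 and Chrm4, the nicotinic receptor subunit genes Chrna4, Chrna7 and Chrnb2, and the enzyme genes Ache and Chat. They were taken by gene symbol from tables of 55188 genes, and each of the 9 symbols matched 1 gene. Acetylcholine reaches the hippocampus mainly from neurons whose cell bodies lie in the medial septum and diagonal band. It acts there through muscarinic receptors, which couple to G proteins, and through nicotinic receptors, which are ion channels of 5 subunits. The M1 and M3 receptors (Chrm1, Chrm3) couple to Gq and phospholipase C, whereas M2 and M4 (Chrm2, Chrm4) couple to Gi and Go. Acetylcholinesterase (Ache) ends the signal, and choline acetyltransferase (Chat) makes the transmitter in cholinergic neurons.

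The study sequenced total RNA of hippocampus from C57BL/6 mice before any fear conditioning. It compared animals labelled KO, for loss of the tyrosine kinase Pyk2 encoded by Ptk2b, with wild-type (WT) animals. There were 2 numbered animals in each group (KO1 and KO2, WT1 and WT2), each with 2 technical replicate libraries, 8 libraries in all. Every sample carries the description of a transgenic mouse. The labels used here give neither age nor sex, nor the allele or the cells in which Pyk2 was removed, nor whether each number is 1 mouse or a pool. The p-values therefore measure the spread between these numbered units, which are called animals here. Values are FPKM, fragments per kilobase of transcript scaled to the fragments of the library, so they are per length and levels can be set side by side between genes. In whole tissue, fewer cells of a type and less RNA per cell cannot be told apart.

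Ptk2b itself was not lower in the animals labelled KO. Its level was 277 and 279 FPKM in the libraries of KO1 and 264 and 274 FPKM in those of KO2, against 232 and 232 FPKM in WT1 and 203 and 202 FPKM in WT2. A gene-level value does not show whether an exon or the protein is missing, so every direction below is given for animals as labelled. Summed FPKM were 489121 to 502193 in libraries labelled KO and 503570 to 506216 in WT libraries. Between 26482 and 27399 genes were above 0 in libraries labelled KO, and between 27318 and 27871 in WT libraries; read totals are not given in these tables. All 13 hippocampal neuron markers on the list used here, such as Prox1 of dentate granule cells and Wfs1 of CA1, were above 0.5 FPKM in at least 1 animal. Choroid plexus and ependyma markers summed to 302 and 1261 FPKM in KO1 and KO2, against 4278 and 7525 FPKM in WT1 and WT2. Of these 14, 13 were lower in both animals labelled KO than in both WT animals, where 30.7% of all genes tested were. Blood markers summed to 149 and 158 FPKM in KO1 and KO2 and to 287 and 317 FPKM in WT1 and WT2. Their part in the differences below was not tested.

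Chrm1 was the most abundant member and Chat the least. Averaged over the 4 animals, the level was 57.7 FPKM for Chrm1, 21.3 FPKM for Ache, 14.3 FPKM for Chrm3, 11.8 FPKM for Chrnb2 and 10.2 FPKM for Chrna7. Below these came Chrm4 at 8.10 FPKM, Chrna4 at 6.08 FPKM, Chrm2 at 1.41 FPKM and Chat at 0.232 FPKM. Chrm1 lay above 92.3% of the 16667 genes with at least 0.5 FPKM in 2 animals, and Chrm2 above 18.7% of them. The order of neighbours was the same in all 4 animals except for Chrm3 and Chrnb2, where Chrm3 was higher in 3 of 4. Between Chrm3 and Chrnb2, and between Chrnb2 and Chrna7, the ranges over animals overlapped; every other pair of neighbours had separate ranges.

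**Figure D1:**
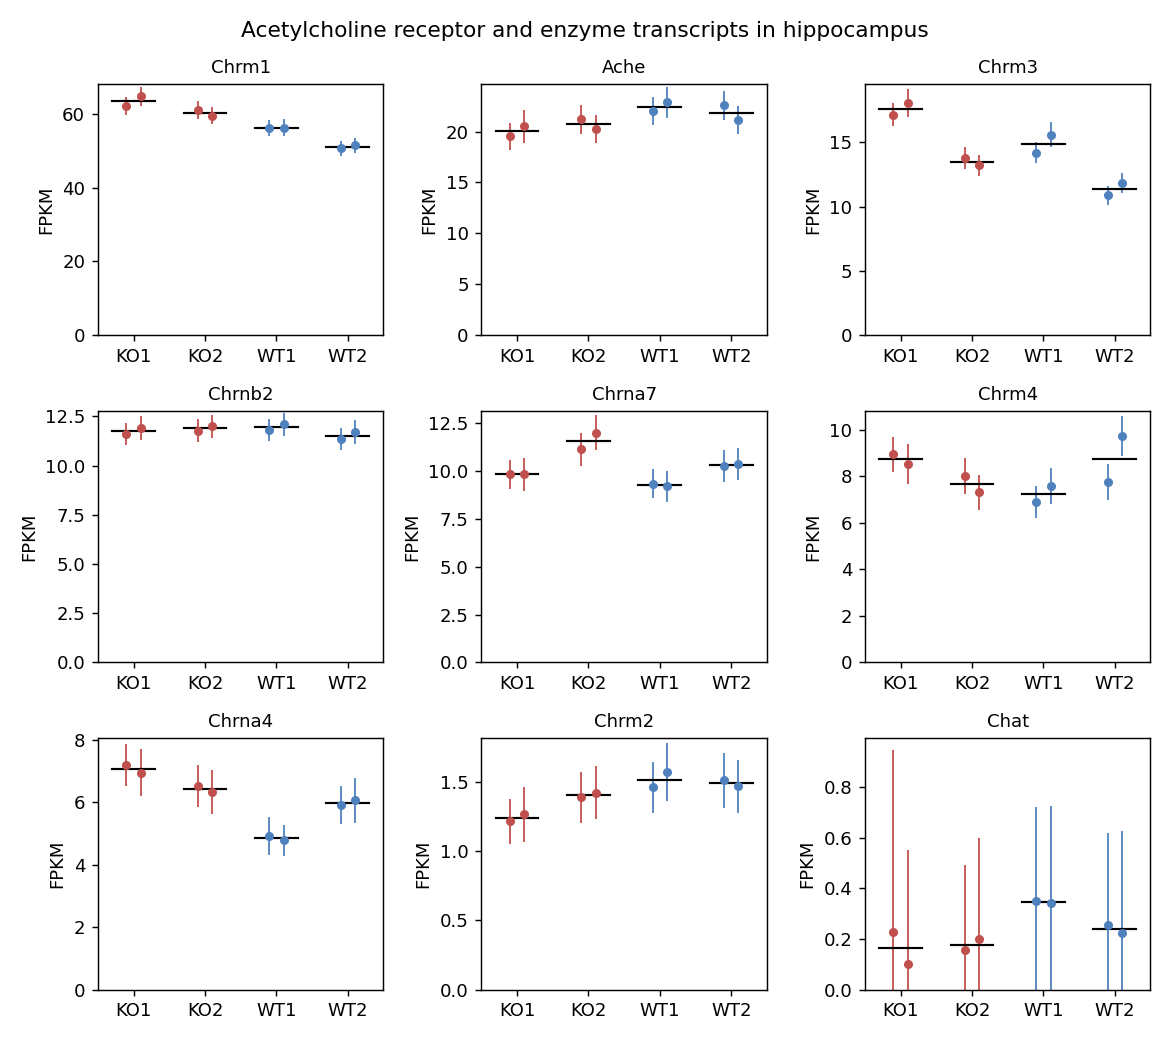
FPKM of the 9 members in each animal, ordered by mean level, with an axis from 0 in every panel. Points are the technical replicate libraries, vertical lines the deposited confidence limits and horizontal bars the animal means; for Chat the lower limit is 0 in all 8 libraries.

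Of the 9 members, 8 passed the minimum of 0.5 FPKM in 2 animals and entered a limma fit of log2(FPKM + 1) over all 16667 genes; Chat did not. None of the 8 passed a Benjamini-Hochberg adjusted p of 0.05 in limma, with values from 0.238 for Chrm1 to 0.946 for Chrnb2. Over all genes 9 were called, 0.054%, all 9 of them lower in KO animals as labelled. That count rested on single animals, at 11 without KO1, 224 without KO2, 0 without WT1 (1604 at an unadjusted p under 0.05) and 1 without WT2. At an unadjusted p under 0.05 there were 3 of the 8 members, Chrm1, Chrna4 and Ache, beside 15.5% of all genes. That member count was 2 with median-of-ratios scaling (2794 of 16649 genes), quantile normalization (2487 of 16667) or equal FPKM sums (2687 of 16665). It was 1 with technical replicate 2 only (2193 of 16642) and 3 with a pseudocount of 0.1 (2556 of 16667). Chrm1 and Chrna4 were on the higher side, with 4.11% of all genes, and Ache on the lower side, with 11.4%. The groups of animals did not overlap for 4 of the 8 members, where 49.1% of all genes had groups that did not overlap. Both animals labelled KO lay above both WT animals for Chrm1 and Chrna4, 2 of the 8, where 18.4% of all genes did so. Both lay below for Chrm2 and Ache, again 2 of the 8, where 30.7% of all genes did so. The median log2 difference of the 8 was 0.07, and that of all genes tested was -0.02. With 2 animals against 2, an exact two-sided permutation test cannot go below p = 0.333.

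**Figure D2:**
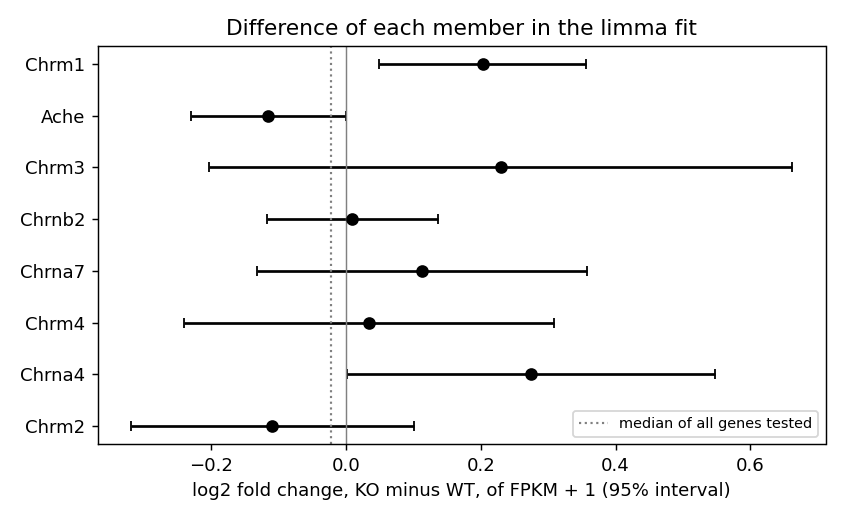
Log2 fold change (KO minus WT, FPKM + 1) of the 8 members that entered the fit, ordered by mean level, with 95% intervals from limma. The dotted line is the median of all genes tested, at -0.02; the intervals of Chrm1 and Chrna4 lie above 0 and that of Ache below 0, and no adjusted p passed the threshold.

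Chrm1 encodes the M1 receptor, the main muscarinic receptor of hippocampal pyramidal cells (ENSMUSG00000032773, chromosome 19, 8663789 to 8683587 in mm10, 1 coding exon). It stood at 62.1 and 64.6 FPKM in the libraries of KO1 and 61.0 and 59.4 FPKM in those of KO2, against 56.1 and 56.2 FPKM in WT1 and 50.6 and 51.4 FPKM in WT2. Every library labelled KO was above every WT library, as for 7.11% of all genes tested, and WT2 was the lowest animal. Means were 61.8 ± 2.22 FPKM in KO and 53.6 ± 3.64 FPKM in WT animals (SD, n = 2 each), 15.3% higher in the animals labelled KO. The log2 difference of 0.20 (standard error, SE, 0.06; 95% interval 0.05 to 0.36) did not pass in limma (adjusted p = 0.238). It was 0.13 without WT2 and 0.27 without WT1. The exact permutation test gave p = 0.333, its smallest value. Part of its exons, 329 bases of 6487, is shared with Gm22820 on the opposite strand, whose own level was at most 2.33 FPKM.

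Chrm3 encodes the M3 receptor, the other Gq-coupled member (ENSMUSG00000046159, chromosome 13, 9875486 to 10360847). Its FPKM were 17.1 and 18.0 in KO1 and 13.8 and 13.2 in KO2, against 14.2 and 15.6 in WT1 and 10.9 and 11.8 in WT2. The groups overlapped, since KO2 lay below WT1, and the animals numbered 1 were the higher ones in both groups. The spread between animals of a group, an SD of 0.26 on the log2 scale, was larger than that between technical replicates, 0.07. The means were 15.5 ± 2.90 FPKM in KO and 13.1 ± 2.51 FPKM in WT animals (SD, n = 2 each), a log2 difference of 0.23 (SE 0.17, adjusted p = 0.561 in limma). Without KO1 that difference was 0.05 and without WT2 0.05, while without KO2 it was 0.41 and without WT1 0.41.

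The Gi- and Go-coupled receptors showed no common direction. Chrm4, the M4 receptor gene (ENSMUSG00000040495, chromosome 2, 91927249 to 91928688), had 8.94 and 8.53 FPKM in KO1 and 8.02 and 7.31 FPKM in KO2, against 6.91 and 7.58 FPKM in WT1 and 7.75 and 9.74 FPKM in WT2. The groups overlapped, and the technical replicates of WT2 stood further apart than KO and WT means. The log2 difference was 0.03 (SE 0.11, 95% interval -0.24 to 0.31, adjusted p = 0.909 in limma). Its sign turned with technical replicate 2 only (-0.11), without KO1 (-0.05), without WT1 (-0.09) and without the first library of WT2 (-0.04). The annotated Chrm4 gene is 1 exon of 1440 bases, of which 1437 are coding, and the RefSeq start of the gene lies 5060 bases upstream of it. The level of Chrm4 is therefore one over the coding exon.

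Chrm2, the M2 receptor gene (ENSMUSG00000045613, chromosome 6, 36388084 to 36528414), was at 1.21 and 1.26 FPKM in KO1 and 1.39 and 1.42 FPKM in KO2, against 1.46 and 1.57 FPKM in WT1 and 1.51 and 1.47 FPKM in WT2. Libraries labelled KO were all below the WT libraries, as for 13% of all genes tested, although the deposited limits, at 12.6% to 15.5% of each value, overlapped between them. The animal means were 1.32 ± 0.116 FPKM in KO and 1.50 ± 0.0186 FPKM in WT (SD, n = 2 each), a log2 difference of -0.11 (SE 0.08, adjusted p = 0.570 in limma). That difference was -0.002 after quantile normalization, -0.058 without KO1 and -0.17 with a pseudocount of 0.1. M2 is known in hippocampus from interneurons and from cholinergic terminals. Interneuron markers such as Gad1 and Sst summed to 569 and 567 FPKM in KO1 and KO2, against 568 and 560 FPKM in WT1 and WT2. Sst leads that sum, with means of 284 FPKM in KO and 291 FPKM in WT animals. Single markers went both ways. Of the 9, 3 were higher and 1 lower in both animals labelled KO, beside 18.4% and 30.7% of all genes tested. The part of interneurons in the Chrm2 values was not tested.

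The muscarinic members, Chrm1 to Chrm4, were also set against each other as shares of their summed FPKM, which do not depend on the scaling of a library. Chrm5 is not a member and is left out of these sums, with means of 0.972 FPKM in KO and 1.18 FPKM in WT animals. Chrm1 made up 69.7% and 72.7% in KO1 and KO2, against 70.4% and 70.3% in WT1 and WT2. The share of Chrm3 was 19.3% and 16.3% in KO1 and KO2, against 18.6% and 15.6% in WT1 and WT2. Chrm2 had 1.36% and 1.69% in KO1 and KO2 and 1.90% and 2.05% in WT1 and WT2. The Gi- and Go-coupled pair together took 10.97% and 10.95% in KO1 and KO2, against 10.98% and 14.1% in WT1 and WT2 (exact permutation test, two-sided, p = 0.333). The mean difference of -1.58 percentage points rested on WT2, where the second library had the highest Chrm4 value, and was -0.018 without that animal. Summed over Chrm1 to Chrm4, muscarinic FPKM were 90.9 and 82.8 in KO1 and KO2, against 79.8 and 72.6 in WT1 and WT2.

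**Figure D3:**
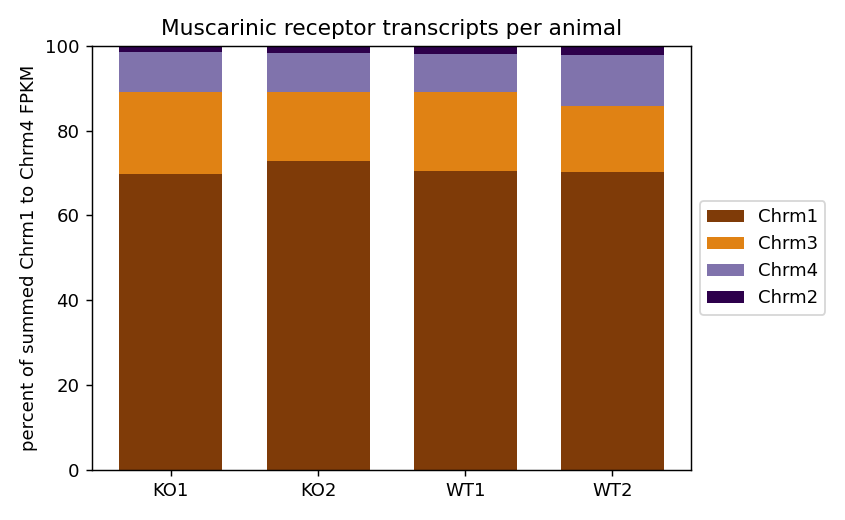
Share of Chrm1, Chrm3, Chrm4 and Chrm2 in their summed FPKM, as a percentage, in each animal. Chrm1 makes up 69.7% to 72.7% in every animal, and WT2 has the largest Chrm4 share, 12.05%.

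Of the 3 nicotinic members, Chrna4 had the largest log2 difference. It encodes the alpha4 subunit, which joins with beta2 (Chrnb2) in the most common high-affinity nicotinic receptor of brain (ENSMUSG00000027577, chromosome 2, 181018380 to 181043546). FPKM of Chrna4 were 7.19 and 6.94 in KO1 and 6.52 and 6.32 in KO2, against 4.93 and 4.78 in WT1 and 5.91 and 6.06 in WT2. Every library labelled KO was above every WT library, with WT1 the lowest animal and the smallest gap between KO2 and WT2. Means were 6.74 ± 0.458 FPKM in KO and 5.42 ± 0.800 FPKM in WT animals (SD, n = 2 each), 24.4% higher in the animals labelled KO. The log2 difference of 0.27 (SE 0.11, 95% interval 0.00 to 0.55) did not pass in limma (adjusted p = 0.319). It was 0.15 without WT1 and 0.40 without WT2.

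The other subunits of that list were closer. Chrnb2 (ENSMUSG00000027950, chromosome 3, 89746195 to 89764632) had 11.6 and 11.9 FPKM in KO1 and 11.78 and 11.99 FPKM in KO2, against 11.8 and 12.1 FPKM in WT1 and 11.3 and 11.7 FPKM in WT2. The groups overlapped, and the log2 difference was 0.01 with a 95% interval of -0.12 to 0.14 (adjusted p = 0.946 in limma). Its sign turned without WT2 (-0.01) and without the first library of WT2 (-0.00). Of the 8380 exon bases of Chrnb2, 1365 are shared with Adar on the opposite strand, at 30.9 to 32.9 FPKM. No strand setting is given in the sources used here, so reads in that stretch cannot be told apart. The ratio of Chrna4 to Chrnb2 FPKM, chosen after the values were seen, was 0.601 and 0.540 in KO1 and KO2, against 0.406 and 0.519 in WT1 and WT2 (exact permutation test, two-sided, p = 0.333).

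Chrna7 encodes the alpha7 subunit, which forms calcium-permeable receptors of its own kind (ENSMUSG00000030525, chromosome 7, 63098692 to 63212569). It was at 9.82 and 9.81 FPKM in KO1 and 11.13 and 11.99 FPKM in KO2, against 9.32 and 9.20 FPKM in WT1 and 10.3 and 10.4 FPKM in WT2. The groups overlapped, because KO1 lay between the WT animals, and the animals numbered 2 were higher in both groups. A log2 difference of 0.11 (SE 0.10) did not pass (adjusted p = 0.615 in limma), and it was 0.01 without KO2 and 0.22 without KO1.

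The promoter sequences of Chrna4, Ache and Chrm2 are shown because these are the members with a listed promoter that passed the minimum and whose groups of animals did not overlap. They come from RefSeq (GRCm38.p6), 250 bases before to 50 after the gene start, 5′ to 3′ on the gene's strand; 8 of the 9 members had an entry. Capitals mark each GC box (GGGCGG, searched on both strands; copies may overlap). Chrna4 is at chr2:181039128-181039427 on the minus strand, Ache at chr5:137288004-137288303 and Chrm2 at chr6:36387834-36388133, both on the plus strand. For Chrna4 and Ache the RefSeq start lies inside the span of the gene in the deposited tables.
Chrna4: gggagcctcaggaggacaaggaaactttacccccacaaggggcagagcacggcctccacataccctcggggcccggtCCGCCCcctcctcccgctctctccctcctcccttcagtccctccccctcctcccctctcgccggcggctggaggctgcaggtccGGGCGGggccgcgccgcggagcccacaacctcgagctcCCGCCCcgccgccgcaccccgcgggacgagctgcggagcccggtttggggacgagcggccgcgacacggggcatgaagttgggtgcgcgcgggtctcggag
Ache: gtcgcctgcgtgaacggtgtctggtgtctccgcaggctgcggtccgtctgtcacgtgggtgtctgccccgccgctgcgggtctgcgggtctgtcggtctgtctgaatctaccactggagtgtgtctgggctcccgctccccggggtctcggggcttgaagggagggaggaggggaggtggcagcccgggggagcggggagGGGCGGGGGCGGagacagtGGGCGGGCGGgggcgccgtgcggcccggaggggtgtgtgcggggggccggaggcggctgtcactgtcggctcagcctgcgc
Chrm2: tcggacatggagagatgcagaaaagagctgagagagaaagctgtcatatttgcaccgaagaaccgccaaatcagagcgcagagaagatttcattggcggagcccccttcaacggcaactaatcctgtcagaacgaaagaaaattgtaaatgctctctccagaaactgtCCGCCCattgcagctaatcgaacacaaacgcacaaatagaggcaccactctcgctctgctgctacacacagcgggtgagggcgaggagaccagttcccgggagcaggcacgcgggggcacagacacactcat
The GC box occurred 3 times for Chrna4, 4 times for Ache and once for Chrm2, and 35.7% of the 32851 listed promoters held at least 1. CpG dinucleotides numbered 33, 30 and 16 in these windows, against a median of 7 over all listed promoters. Among members whose groups of animals overlapped, the windows held 35 for Chrna7, 30 for Chrm4, 12 for Chrnb2 and 11 for Chrm3. The windows of Chrna4 and Ache, genes with log2 differences of opposite sign that did not pass, were both rich in GC, at 74.3% and 74.0%. The E-box CACGTG occurred once for Ache and in neither of the others, beside 7.15% of all listed promoters, and the CRE (TGACGTCA, 1.79% of all) was in none of the 3. These matches describe letters and are not evidence of binding.

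Ache encodes acetylcholinesterase (ENSMUSG00000023328, chromosome 5, 137287519 to 137294466). Its FPKM were 19.5 and 20.5 in KO1 and 21.2 and 20.2 in KO2, against 22.0 and 22.9 in WT1 and 22.6 and 21.1 in WT2. Both animals labelled KO were below both WT animals, while single libraries overlapped narrowly. Means were 20.4 ± 0.486 FPKM in KO and 22.2 ± 0.420 FPKM in WT animals (SD, n = 2 each), 8.03% lower in the animals labelled KO. The log2 difference of -0.12 (SE 0.04) did not pass in limma (adjusted p = 0.320), and its interval ended at -0.0004. That difference depended on scaling. It was -0.077 with median-of-ratios scaling, -0.094 with equal FPKM sums and -0.10 after quantile normalization. Over the 24 alternatives it ran from -0.139 to -0.077 and kept its sign. Prima1, which anchors the brain form of the enzyme in membranes, was at 1.82 ± 0.114 FPKM in KO and 2.03 ± 0.252 FPKM in WT animals (SD, n = 2 each), and Bche, the related butyrylcholinesterase, at 0.988 ± 0.0421 and 0.950 ± 0.119 FPKM in KO and WT.

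Chat (ENSMUSG00000021919, chromosome 14, 32408203 to 32465989) was near the limit of detection. It was at 0.228 and 0.101 FPKM in KO1 and 0.155 and 0.198 FPKM in KO2, against 0.351 and 0.343 FPKM in WT1 and 0.255 and 0.224 FPKM in WT2. Both animals labelled KO were lower than both WT animals, but libraries overlapped and the deposited lower limit was 0 in all 8. With no minimum on FPKM, limma gave a log2 difference of -0.14 on the FPKM + 1 scale (adjusted p = 0.477). No difference in Chat was detectable at this depth. The annotated span of Chat holds Slc18a3, the vesicular acetylcholine transporter gene, with which it shares 0 exon bases.

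The other markers of cholinergic projection neurons lay in the same direction as Chat. All 9 on the list, Chat included, were lower in both animals labelled KO than in both WT animals, where 33.2% of the 11760 genes with a mean of 0.1 to 5 FPKM were, and 24.9% of the 34097 genes above 0. In 7 of the 9, Chat and the septal transcription factor gene Lhx8 excepted, every library labelled KO was below every WT library, where 11% of the 11760 genes of that level were. Their summed level was 2.61 and 4.61 FPKM in KO1 and KO2, against 8.52 and 6.54 FPKM in WT1 and WT2. Slc18a3 had a mean of 0.0817 ± 0.0339 FPKM in KO and 0.341 ± 0.0473 FPKM in WT animals (SD, n = 2 each). Slc5a7, the high-affinity choline transporter that feeds Chat, had 0.241 ± 0.0266 FPKM in KO and 0.483 ± 0.0762 FPKM in WT animals. The neurotrophin receptor gene Ngfr, which septal cholinergic neurons express, was at 0.582 ± 0.313 FPKM in KO animals, against 1.29 ± 0.305 FPKM in WT animals. Ratios of KO to WT means ran from 0.240 for Slc18a3 to 0.581 for Chat, with a median of 0.451.

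None of these 9 markers passed in limma with no minimum on FPKM, where the adjusted p was 0.355 for Slc18a3 and 0.381 for Slc5a7 (log2 differences -0.31 and -0.26, SE 0.04 and 0.05). That fit called 0 of 34097 genes, with 3741 at an unadjusted p under 0.05. Levels this low rest on few fragments. Markers of striatum, of habenula and thalamus, and of neocortex went both ways within each list. Striatal markers summed to 74.2 and 74.2 FPKM in KO1 and KO2, against 107 and 104 FPKM in WT1 and WT2. Of these, 6 of 11 were lower and 1 of 11 higher in both animals labelled KO. Most of the gap in the striatal sum was in Ppp1r1b, at 28.0 and 28.3 FPKM in KO1 and KO2, against 49.5 and 52.3 FPKM in WT1 and WT2. Habenula and thalamus markers summed to 51.2 and 66.2 FPKM in KO1 and KO2, against 68.1 and 69.1 FPKM in WT1 and WT2, with 3 of 9 lower and 2 of 9 higher in both animals labelled KO. Neocortex markers summed to 70.7 and 58.9 FPKM in KO1 and KO2, against 53.2 and 59.1 FPKM in WT1 and WT2. Of these, 1 of 8 was lower and 2 of 8 higher in both animals labelled KO. Over all genes tested, 30.7% were lower and 18.4% higher in both. Choroid plexus and meninges markers, in contrast, lay mostly in the same direction as the cholinergic ones. Choroid plexus markers, given above, were lower in both animals labelled KO for 13 of 14. Meninges markers were so for 7 of 9. The latter summed to 39.3 and 70.3 FPKM in KO1 and KO2, against 116 and 189 FPKM in WT1 and WT2. Blood markers, also given above as a sum, were lower in both animals labelled KO for 5 of 6 and higher for 1, Slc4a1. The part of tissue from outside the hippocampus in the cholinergic values was not tested.

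**Figure D4:**
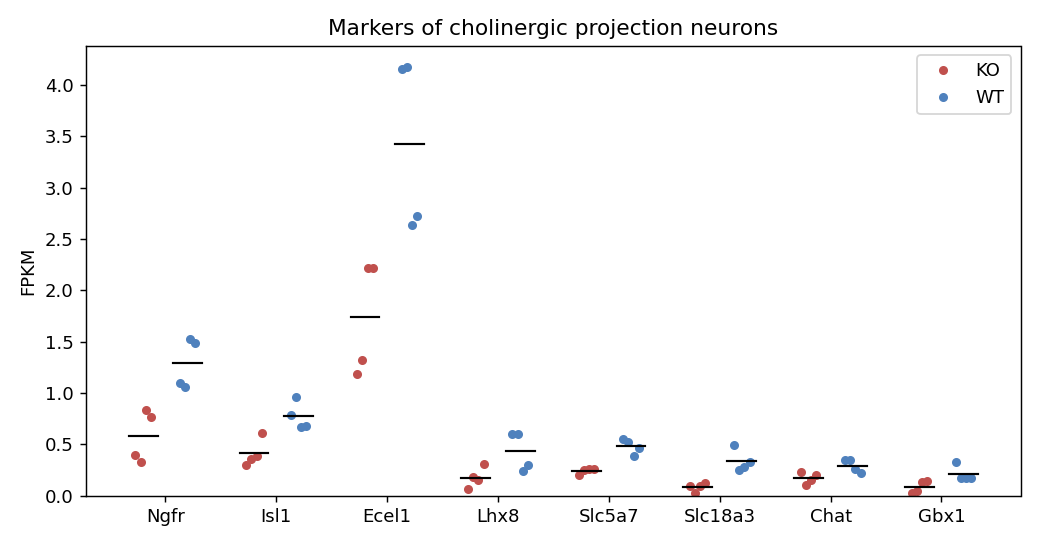
FPKM of 8 of the 9 markers of cholinergic projection neurons in the 8 libraries, with KO left of WT for each gene and bars at the group means. All KO points lie below all WT points in each gene shown except Chat and Lhx8, where they overlap.

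The remaining receptor genes were mostly close to absent. Of 14 other acetylcholine receptor genes, 12 did not reach 0.5 FPKM in 2 animals, among them Chrna3, Chrna6 and the muscle subunit genes Chrnd, Chrne and Chrng. Chrna5, an accessory subunit of alpha4 beta2 receptors, was at 2.12 ± 0.264 FPKM in KO and 2.05 ± 0.0447 FPKM in WT animals, and Chrm5 at 0.972 ± 0.611 and 1.18 ± 0.147 FPKM in KO and WT (SD, n = 2 each). Neither passed in limma (adjusted p = 0.915 and 0.744). Chrnb4, a subunit prominent in medial habenula, was picked after its values were seen: it was at 0.0347 and 0.0804 FPKM in KO1 and KO2, against 0.338 and 0.411 FPKM in WT1 and WT2. All its libraries labelled KO lay below the WT ones, and with no minimum on FPKM its adjusted p in limma was 0.355. On the habenula and thalamus list, the genes counted above as lower were Chrnb4 itself, Gpr151 and Prkcd, and those counted as higher were Lef1 and Nwd2. The part of habenula tissue in the Chrnb4 values was not tested.

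Genes that act on nicotinic receptors or below muscarinic ones showed no called member. For the counts at an unadjusted p under 0.05 in limma, the shares over all genes tested were 4.11% higher and 11.4% lower. Of the 11 chaperone and Ly6 genes in the fit, limma called 0 in either direction (3 higher and 0 lower at an unadjusted p under 0.05), with a median log2 difference of 0.03. Lynx1, a membrane-bound brake on nicotinic receptors, was at 104 and 100.2 FPKM in KO1 and KO2, against 89.6 and 89.2 FPKM in WT1 and WT2 (log2 difference 0.19, SE 0.04, adjusted p = 0.137). The most abundant were Ly6h, at 181 ± 21.1 FPKM in KO and 193 ± 8.81 FPKM in WT animals, and Ly6e, at 169 ± 3.26 and 155 ± 7.81 FPKM in KO and WT (SD, n = 2 each). Of 5 partners in acetylcholine synthesis, transport and breakdown in the fit, 0 were called (0 higher and 2 lower unadjusted; median -0.11). The choline kinase gene Chkb stood at 10.8 ± 0.781 FPKM in KO and 12.9 ± 0.377 FPKM in WT animals (adjusted p = 0.215 in limma), and the related Chka at 26.3 ± 0.343 and 29.1 ± 1.27 FPKM in KO and WT (adjusted p = 0.284). The choline transporter gene Slc44a1 was at 29.6 ± 2.40 FPKM in KO and 29.1 ± 1.05 FPKM in WT animals (SD, n = 2 each).

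In the Gq pathway and its M-current channels, limma called 0 of 13 genes (4 higher and 1 lower unadjusted), and the median log2 difference was 0.10. Unadjusted, 4.11% of all genes tested were higher and 11.4% lower. Plcb1, the phospholipase C gene that M1 signalling uses in forebrain, was at 38.2 and 36.0 FPKM in KO1 and KO2, against 32.9 and 31.1 FPKM in WT1 and WT2 (log2 difference 0.21, SE 0.05, adjusted p = 0.196). Plcb4, a related enzyme, was at 6.88 and 6.78 FPKM in KO1 and KO2, against 8.48 and 8.81 FPKM in WT1 and WT2 (log2 difference -0.30, SE 0.06, adjusted p = 0.126). In each of these genes the groups of animals did not overlap, in opposite directions. Over all genes tested, both animals labelled KO lay above both WT animals for 18.4% and below for 30.7%. Plcb1 was picked after its values were seen. The most abundant gene of this list was Prkcb, a protein kinase C gene, at 229 ± 23.7 FPKM in KO and 205 ± 11.4 FPKM in WT animals (SD, n = 2 each; adjusted p = 0.429 in limma).

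In the Gi and Go pathway and its GIRK channels, 0 of 11 genes were called by limma (1 higher and 1 lower unadjusted), with a median of 0.11. Here and for the receptor families below, the unadjusted shares over all genes tested were 4.11% higher and 11.4% lower. Gnao1, the Go alpha subunit gene, was at 265 ± 1.57 FPKM in KO and 258 ± 2.18 FPKM in WT animals, and Gnai2 at 79.3 ± 1.76 and 86.8 ± 0.153 FPKM in KO and WT (SD, n = 2 each; adjusted p = 0.640 and 0.228). Among other receptor families, 0 of 11 serotonin receptor genes in the fit were called (0 higher and 1 lower unadjusted; median 0.02), and 0 of 7 metabotropic glutamate receptor genes (2 higher and 0 lower unadjusted; median 0.07). The median of the acetylcholine members, 0.07, lay within the range of these lists, -0.11 to 0.11. Htr2c, which choroid plexus expresses strongly, was at 5.41 and 11.5 FPKM in KO1 and KO2, against 17.4 and 21.7 FPKM in WT1 and WT2 (adjusted p = 0.219 in limma). Next in level came Htr1a, at 6.69 ± 0.305 FPKM in KO and 6.99 ± 0.142 FPKM in WT animals (SD, n = 2 each). Grm5, which couples to Gq like M1, was at 45.5 ± 0.542 FPKM in KO and 44.7 ± 0.432 FPKM in WT animals, and Grm2, which couples to Gi, at 18.6 ± 1.92 and 14.6 ± 0.974 FPKM in KO and WT (SD, n = 2 each; adjusted p = 0.793 and 0.210 in limma).

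The members did not share 1 pattern over the 8 libraries, which come from 4 animals. As a description, Pearson's r of log2(FPKM + 1) was 0.85 between Chrm1 and Chrm3, 0.53 between Chrm1 and Chrna4, 0.87 between Chrm2 and Ache, and -0.84 between Chrna4 and Ache. Among 14491 other genes, the 2 most like Chrm1 were the phosphatase genes Ptprj (r = 0.99) and Dusp4 (r = 0.98), and those most like Chrm3 were Rab11fip3 (r = 0.99) and the potassium channel gene Kcnd2 (r = 0.98). Chrna4 was most like Oxr1 and Zmat4 (r = 0.995 and 0.990), Chrna7 most like Pnma2 and Slit3 (both 0.99), and Chrnb2 most like Ctdsp2 and Gm21742 (0.98 and 0.97). Closest to Ache were Sprtn and Map3k11 (both 0.98), to Chrm2 Fuz and Tapbpl (0.99 and 0.98), and to Chrm4 Zfp968-ps and Stip1 (both 0.94). These values come from 4 animals and carry no p.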

How the data were processed

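Gene tables of 8 hippocampal libraries were used, with groups, animal numbers and technical replicates read from the sample titles. Per the file headers, the authors deposited FPKM for every gene, together with a confidence interval and a quantification status. In the submitters' processing notes mm10, HISAT and Bowtie version 1 are listed without their roles. Which program computed FPKM, how libraries were scaled and whether counting used strand is not stated there. No counts were used, and read totals are unknown.

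Rows that repeat a gene identifier (53 of 55241 per table) were summed, values whose status was not OK became missing, and technical replicates were averaged per animal. Tests covered genes reaching 0.5 FPKM in 2 animals or more, as log2(FPKM + 1), KO minus WT, with limma 3.58.1 (trended variance) in R 4.3.3 and Benjamini-Hochberg adjustment at 0.05. The pseudocount understates differences of low genes. The procedure was tested on simulated data. Coordinates are those of the tables with starts counted from 1, and exon overlaps come from GENCODE M21, in which all members had the same coordinates. The members, lists and minimum were chosen with earlier results of these data known. Named were all members, and of each list the 2 most abundant genes, the one with the smallest p and any called; Plcb1, Prima1, Bche, Chrnb4, Ppp1r1b and the promoter motifs were added after their values were seen. Some listed genes are not reported here by name. Likeness was taken over genes with a mean of at least 1 FPKM. Alternatives covered scaling, pseudocount, minimum, technical replicates, units, a replicate block, the variance trend and each animal or library left out.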

Additional observations from a re-analysis of the deposited data

How the results depend on the processing

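Over 24 alternatives, 185 of 192 member values kept their direction and stayed short of the threshold, 6 turned direction and 1 passed. That 1 was Chrm1 (adjusted p = 0.031 in limma) with 8 libraries as units and the animal as a random block, a fit that called 1 member, 12 genes of the other lists and 1086 genes in all. Technical replicates of an animal are not independent animals. The count of all genes called, 9, was 0 with no minimum on FPKM, 1 without a variance trend, 14 with a pseudocount of 0.1, 17 with a pseudocount of 0.5, and 19 and 35 with technical replicate 1 only and 2 only. With 1 animal or library left out (leave-one-out) it was 0 to 224; each library left out gave 13 to 21. A fit with 1 animal left in a group takes its spread from the other group. The members called were 0 in all of these fits, and genes of the other lists 0 to 1 (Htr2c, without KO2). The median log2 difference of the members was 0.13 after quantile normalization and 0.14 with technical replicate 1 only, against 0.07, and 0.034 without KO1 and 0.038 without WT1. Chrm4 turned to -0.11 with technical replicate 2 only, and ranged from -0.09 to 0.15 with an animal or library left out (-0.086 without WT1, 0.155 without WT2). Chrnb2 ranged from -0.014 without WT2 to 0.033 without WT1 with an animal or library left out, and was 0.053 after quantile normalization. The causes were not tested.

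With the animal number as a replicate block, 184 genes and 0 members were called. The 2 groups share only the numbers 1 and 2: the labels tie them to no litter or day, and the deviations of same-numbered animals correlated at 0.11 across genes.

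The cholinergic neuron markers lower in both animals labelled KO were 8 or 9 of 9 under scalings, single technical replicates and each library left out. These alternatives were added after the data were seen. Leaving out an animal could not lower the count, since all 9 already had both animals labelled KO below both WT animals. With single technical replicates or a library left out, the count could not fall below 7. In 7 of the 9, every library labelled KO was already below every WT library. With 2 animals a group, no single value can pass an exact test, and the levels of Chat and its neighbours rest on few fragments.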
